A study of Mus musculus with 10 samples.

Results

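Fatty acid oxidation, ketone body handling and the targets of PPAR alpha were followed in mouse liver through 38 genes, chosen by gene symbol. The list was made with earlier results of these data known. Of the 38 genes, 37 were represented by at least 1 probe set carrying that symbol alone, and Acsl1 was not analysed here. All 37 averaged 4 log2 or more over the 10 arrays, a limit set to leave out values near background, and were tested. The array held 45101 probe sets, of which 14732 passed the same filter. Each gene is described by its probe set with the highest mean, and further probe sets are named where they differ.

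The livers came from 10 female mice, 1 array each. In all 10 the mouse Apoe gene was replaced on both alleles by a human gene under the mouse Apoe promoter: human APOE3 in 5 mice (Apoetm2(APOE*3)Mae) and human APOE4 in the other 5 (Apoetm3(APOE*4)Mae). All mice had the C57BL/6 background (backcross generation N8), were 3 months old and were fed a Western-type diet (41% of energy from milk fat, cholesterol at 2 g/kg). The labels state 6 weeks of this diet in one place and 2 months in another. No mice with the mouse Apoe gene or on another diet are part of the comparison, and the feeding state at collection is not given in the sources used here. Array medians lay between 2.61 and 2.67 log2, and no 2 arrays held the same values (correlations 0.970 to 0.990). In this bulk tissue, fewer hepatocytes and less RNA per hepatocyte cannot be told apart.

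Hepatocytes burn long-chain fatty acids in mitochondria: the acids are taken up and activated to acyl-CoA, carried across the membrane as carnitine esters and shortened by a repeating cycle of dehydrogenation, hydration, dehydrogenation and thiolysis. Very long chains are first shortened in peroxisomes, and part of the acetyl-CoA leaves the liver as ketone bodies. PPAR alpha, a nuclear receptor that binds fatty acids, raises the transcription of many of these genes when fat is the main fuel.

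No gene of the group passed the adjusted threshold between the genotypes. In limma, 0 of 37 had a Benjamini-Hochberg adjusted p under 0.05 by the brightest probe set, against 12 of the 14732 probe sets (0.0815%). The lowest adjusted p was 0.584 by the brightest probe sets and 0.571 with the further probe sets. By the brightest probe sets, an unadjusted p under 0.05 was reached by 3 genes, Hadha, Etfb and Pdk4, all higher in APOE4. That is 3 of 37 against 8.00% of all probe sets tested (5.53% higher and 2.46% lower) and 7.16% with 1 probe set per gene, so the share is near the background. This count was 6 without APOE3 replicate 1, 0 without APOE3 replicate 2 or 5, 1 without APOE4 replicate 2, 4 or 5, and 0 after renewed quantile normalization. Among the further probe sets, the dimmest ones of Cpt1a and Hadh were also under 0.05 (unadjusted p = 0.0144 and 0.0187 in limma), both lower in APOE4. By sign, 27 genes were above 0 and 10 below, while 60.9% of all probe sets, and 59.6% with 1 per gene, were above 0. The median log2 difference, APOE4 minus APOE3, was 0.12 over the 37 genes and 0.05 over all probe sets. Without APOE4 replicate 2 these medians were 0.049 and 0.0451. By the brightest probe set, the 95% interval of the difference lay within 1.5-fold in either direction for 25 of the 37 genes. A larger change of these fell outside that interval. For the other 12 the interval reached past 1.5-fold. Among the 25, further probe sets had intervals that reached past 1.5-fold (0.585 log2) for Cpt1a (-0.782 to -0.107) and Hadh (-0.732 to -0.082). Those of Slc25a20 (-0.105 to 0.711) and Decr1 (-0.189 to 0.774) did so too.

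**Figure D1:**
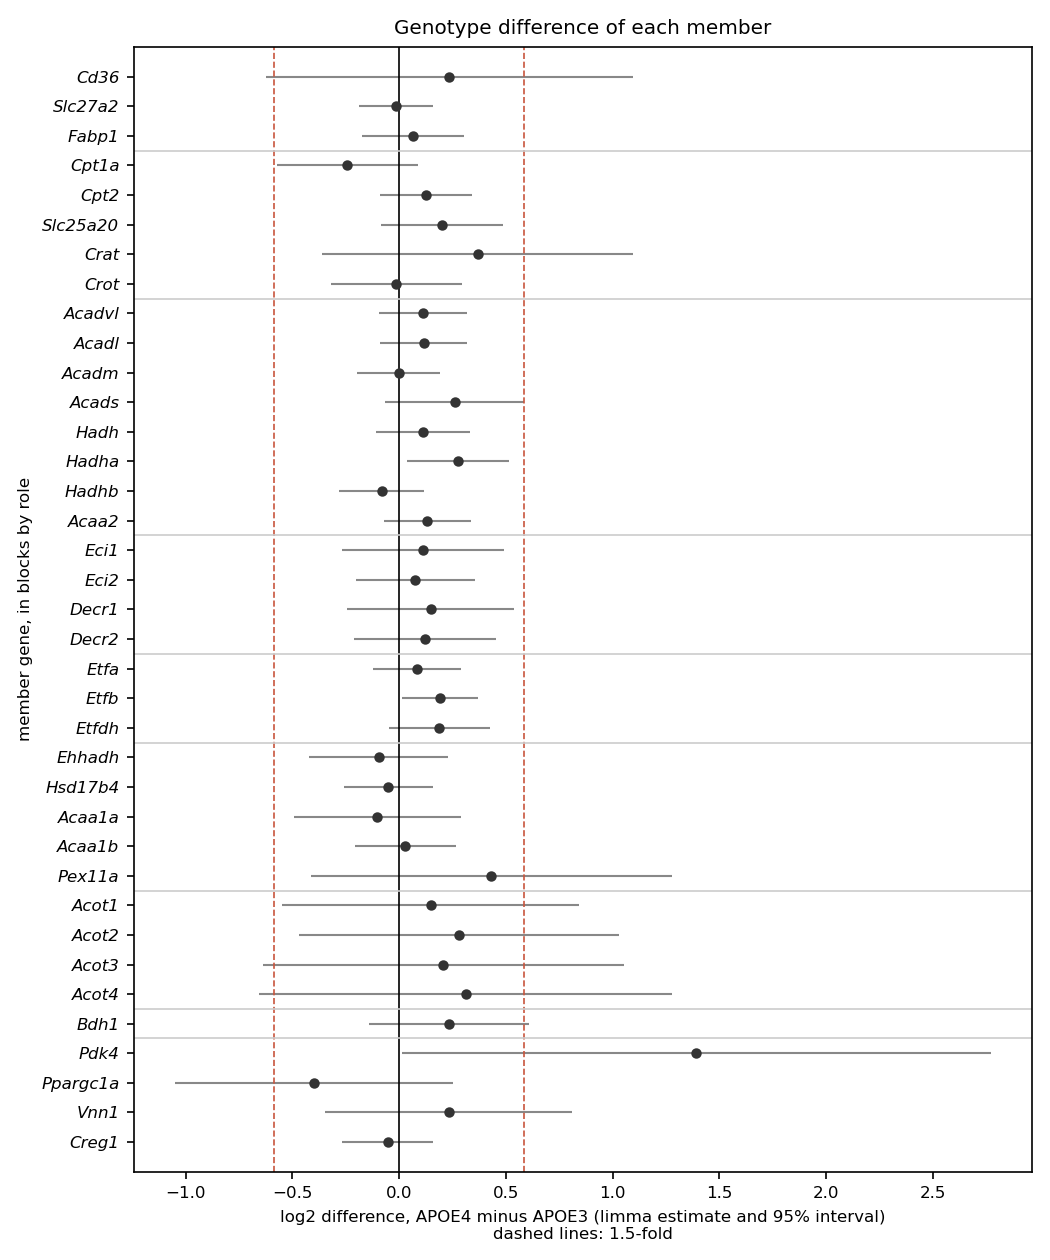
Log2 difference between genotypes (APOE4 minus APOE3, x axis) for the 37 genes (y axis, in blocks by role), as limma estimates with 95% intervals; the dashed lines mark 1.5-fold. The intervals of Hadha, Etfb and Pdk4 lie above 0, and only the estimate of Pdk4 (1.39) lies beyond a dashed line.

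Uptake and binding genes did not differ beyond the spread between animals. Cd36, a fatty acid translocase at the cell surface, read 12.1, 10.52, 10.57, 10.15 and 10.04 log2 in APOE3 replicates 1 to 5 and 11.15, 11.58, 10.58, 11.17 and 10.09 in APOE4 replicates 1 to 5. The groups overlapped, and APOE3 replicate 1 was the highest of all 10. The log2 difference was 0.24 (SE 0.391, n = 5 each, adjusted p = 0.902 in limma), and both further probe sets gave 0.17 and 0.18. Without 1 animal it ran from 0.07 (without APOE4 replicate 2) to 0.59 (without APOE3 replicate 1, unadjusted p = 0.0564, adjusted p = 0.443 in limma). Fabp1, the cytosolic fatty acid binding protein of liver, stood at 14.53 ± 0.15 in APOE3 and 14.59 ± 0.163 in APOE4 (SD, n = 5). Slc27a2, a transporter and very-long-chain acyl-CoA synthetase, had the tightest values of the group, with a pooled SD within genotypes of 0.0702 and a difference of -0.01 (95% interval -0.189 to 0.161).

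The region before the start of Fabp1 is shown because it was the only one of the group to hold a match to the direct repeat to which PPAR alpha with its partner RXR binds. The search covered the 250 bases before each annotated start in RefSeq sequences of the GRCm38.p6 assembly, which held windows for 33 of the 38 genes. The pattern, 2 copies of AGGNCA with 1 base (N) between them, on either strand, was found in 1 gene of 33, Fabp1, and in 0.338% of all 32851 windows. Its half-site AGGTCA was found in 7 of the 33 (Acadm, Acadvl, Acot4, Cd36, Cpt1a, Fabp1 and Slc27a2) and in 14.0% of all windows. In Fabp1 the repeat lies 67 to 55 bases before the start on the opposite strand, where bases 67 to 62 also match the half-site, and a further half-site lies 9 to 4 bases before the start. Capitals mark these matches, which are descriptions of letters and not of bound sites.
Fabp1, chr6:71199629-71199878, plus strand: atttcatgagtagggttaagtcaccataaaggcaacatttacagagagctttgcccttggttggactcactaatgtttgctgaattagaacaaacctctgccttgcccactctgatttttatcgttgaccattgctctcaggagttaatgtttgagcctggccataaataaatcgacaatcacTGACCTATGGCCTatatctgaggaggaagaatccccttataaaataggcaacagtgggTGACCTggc

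Among the genes that move acyl groups, no difference passed. Cpt1a, the outer-membrane carnitine palmitoyltransferase that limits entry of long chains into mitochondria, read 11.39, 11.66, 10.89, 11.41 and 11.52 log2 in APOE3 and 11.06, 11.47, 10.96, 11.09 and 11.1 in APOE4. Apart from APOE3 replicate 3, which was low, and APOE4 replicate 2, which was high, the APOE4 livers were the lower ones. Its 3 probe sets did not give the same size: the log2 difference was -0.24 (SE 0.15, adjusted p = 0.703 in limma) for the brightest, -0.01 (SE 0.158, adjusted p = 0.993) for the next and -0.44 (SE 0.153, adjusted p = 0.571) for the dimmest. The first and the last carry the x_at suffix, which marks probe sets whose probes can also match other transcripts.

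Crat, which transfers short acyl groups to carnitine, read 8.22, 6.46, 7.59, 7.51 and 6.8 in APOE3 and 7.48, 8.23, 7.47, 8.17 and 7.09 in APOE4. The values overlapped throughout, and the log2 difference was 0.37 (SE 0.331, adjusted p = 0.796 in limma). Slc25a20, the carnitine-acylcarnitine translocase of the inner membrane, was at 0.20 (SE 0.13), and Cpt2, which rebuilds acyl-CoA in the matrix, at 0.13 (SE 0.0975). Crot, the peroxisomal carnitine octanoyltransferase, was at -0.01 (SE 0.14), a sign that turned with array weights or with arrays centred on their medians.

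The mitochondrial spiral varied little between animals. The pooled SD of its 8 genes ran from 0.101 to 0.243 with a median of 0.116, against a median of 0.231 over all probe sets tested. The median was 0.114 for the electron transfer genes and 0.124 for the hepatocyte markers, so the low spread was not particular to the spiral. Hadha, the alpha subunit of the trifunctional protein, which carries the hydratase and long-chain hydroxyacyl-CoA dehydrogenase activities, read 10.72, 10.5, 10.52, 10.82 and 10.51 log2 in APOE3. In APOE4 it read 10.85, 11.14, 10.69, 10.9 and 10.87. The groups overlapped, since APOE3 replicates 1 and 4 lay above APOE4 replicate 3. The log2 difference was 0.28 (SE 0.108, 95% interval 0.037 to 0.513), 1.21-fold, with an unadjusted p = 0.0274 and an adjusted p = 0.584 in limma. Left out in turn, 4 of the 10 animals brought the unadjusted p above 0.05, up to 0.0731 without APOE4 replicate 2.

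Hadhb, the beta subunit with the thiolase activity, did not show the same values. In limma its brightest probe set, of the x_at kind, had a difference of -0.08 (SE 0.0911, adjusted p = 0.845), and the second one of 0.19 (SE 0.121, adjusted p = 0.714). Hadha and Hadhb are transcribed in opposite directions from starts that lie 272 bases apart, so both are read from the stretch between them. These genes share that stretch while their brightest probe sets had differences of opposite sign, so the 250 bases of it nearest to Hadhb are shown. The 250 bases before either start held neither pattern.
Hadhb, chr5:30155003-30155252, plus strand, the 250 bases before its start: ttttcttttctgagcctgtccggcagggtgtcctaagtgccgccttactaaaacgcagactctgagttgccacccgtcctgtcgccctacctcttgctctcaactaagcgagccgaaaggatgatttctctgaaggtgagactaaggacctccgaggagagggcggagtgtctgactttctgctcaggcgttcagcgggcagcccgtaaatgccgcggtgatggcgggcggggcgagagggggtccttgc

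The acyl-CoA dehydrogenases, which open each round of the cycle for chains of different length, were at 0.11 for Acadvl (very long chains, SE 0.094), 0.11 for Acadl (long chains, SE 0.0934) and 0.26 for Acads (short chains, SE 0.148). Acadm, the medium-chain enzyme, was at 12.40 in both genotypes (SD 0.0581 in APOE3 and 0.131 in APOE4), with an interval of -0.196 to 0.194. Acaa2, a thiolase of the matrix, was at 0.13 (SE 0.0935), and its further probe sets at 0.18 and 0.25. Hadh, the hydroxyacyl-CoA dehydrogenase for shorter chains, was at 0.11 (SE 0.1) and 0.05 (SE 0.112) by its brighter probe sets. Its dimmest, an x_at probe set with a mean of 7.42, had a difference of -0.41 (SE 0.148, adjusted p = 0.58 in limma). On it every APOE4 liver (7.05 to 7.36) lay below every APOE3 liver (7.37 to 8.18). The sign of Hadh therefore depends on the probe set. Hadh, Hadhb and Hsd17b4 were the 3 genes, of the 17 with several tested probe sets, whose probe sets differed in sign.

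The auxiliary enzymes for unsaturated chains were all slightly above 0, between 0.08 and 0.15, and none passed. Decr1, the mitochondrial dienoyl-CoA reductase, read 12.13, 11.57, 11.34, 11.52 and 11.43 log2 in APOE3 and 11.72, 12.17, 11.48, 11.9 and 11.45 in APOE4. The highest values were those of APOE4 replicate 2 and APOE3 replicate 1, and the groups overlapped. Its difference was 0.15 (SE 0.178, adjusted p = 0.857 in limma). A second Decr1 probe set was at 0.29 (SE 0.219). Eci1, the matrix enoyl-CoA isomerase, was at 0.11 (SE 0.172), Eci2, its peroxisomal counterpart, at 0.08 (SE 0.127) and Decr2, the peroxisomal reductase, at 0.12 (SE 0.151).

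The electron transfer flavoprotein passes electrons from the acyl-CoA dehydrogenases to the respiratory chain. Etfb, its beta subunit, read 11.54, 11.45, 11.37, 11.51 and 11.47 log2 in APOE3 and 11.57, 11.78, 11.6, 11.69 and 11.68 in APOE4. Every APOE4 liver lay above every APOE3 liver. By the brightest probe sets Etfb was the only gene of the 37 whose groups did not overlap, while 2.02% of all probe sets tested did not overlap (1.45% with APOE4 higher). The log2 difference was 0.19 (SE 0.0807, 95% interval 0.014 to 0.369), 1.14-fold, with an unadjusted p = 0.0368 and an adjusted p = 0.59 in limma. Without 1 animal the unadjusted p was under 0.05 in 4 of 10 fits. Etfa, the alpha subunit, was at 0.08 (SE 0.0931) and Etfdh, the ubiquinone oxidoreductase that takes over the electrons, at 0.19 (SE 0.107), and neither passed.

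Peroxisomal enzymes were split in sign, with 2 genes above 0 and 3 below. Ehhadh, the peroxisomal bifunctional enzyme, was at -0.10 (SE 0.149), Hsd17b4, the second such enzyme, at -0.05 (SE 0.0943), and the thiolase genes Acaa1a and Acaa1b at -0.10 (SE 0.178) and 0.03 (SE 0.107). The near-identical Acaa1a and Acaa1b may share signal, as the Acaa1a probe set is of the x_at kind. Pex11a, which encodes a membrane protein of peroxisome division, read 11.59, 9.6, 9.86, 10.19 and 9.5 log2 in APOE3 and 10.26, 11.28, 10.21, 11 and 10.16 in APOE4. Except for APOE3 replicate 1, the highest of all, the APOE3 livers lay below the APOE4 livers, with APOE3 replicate 4 (10.19) just above APOE4 replicate 5 (10.16). The difference was 0.43 (SE 0.385, adjusted p = 0.794 in limma) and 0.43 (SE 0.405) by a second probe set. Without APOE3 replicate 1 it was 0.79 (unadjusted p = 0.0116, adjusted p = 0.328).

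The acyl-CoA thioesterases, which split acyl-CoA into free acid and CoA, varied more between animals than between genotypes. Their pooled SDs ran from 0.576 to 0.809, and their differences from 0.15 to 0.31 with adjusted p-values of at least 0.859 in limma. Without 1 animal the difference ran from -0.02 to 0.34 for Acot1, 0.08 to 0.51 for Acot2, 0.03 to 0.47 for Acot3 and 0.11 to 0.65 for Acot4, with no unadjusted p under 0.05. Acot2, the mitochondrial member, read 10.18, 9.34, 9.05, 9.28 and 8.48 log2 in APOE3 and 9.72, 10.12, 9.13, 10.07 and 8.67 in APOE4. Acot4, a peroxisomal member, read 8.85, 7.6, 6.88, 7.01 and 7.14 in APOE3 and 7.99, 8.64, 7.08, 8.49 and 6.84 in APOE4. In both, APOE3 replicate 1 and APOE4 replicates 2 and 4 held the highest values, so each genotype had livers at both ends. Acot1, the cytosolic member, had its highest values in the same animals (11.74, 11.78 and 11.78), against 10.37 to 11.12 in the other 7. Acot3 was at 11, 10.85 and 10.77 there and at 9.19 to 10.44 in the others. The Acot3 probe set is of the s_at kind, which can report several related transcripts, so signals of these paralogs may not be separate.

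These genes lie side by side on chromosome 12, and the 100 bases before each start are shown since their values moved together across animals. The capitals in Acot4 mark its half-site, 13 to 8 bases before the start, the only half-site within these stretches; of the 2 windows given for Acot3 the first is printed.
Acot2, chr12:83987761-83987860, plus strand: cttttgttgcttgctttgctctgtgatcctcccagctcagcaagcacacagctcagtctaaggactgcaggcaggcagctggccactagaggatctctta
Acot1, chr12:84009402-84009501, plus strand: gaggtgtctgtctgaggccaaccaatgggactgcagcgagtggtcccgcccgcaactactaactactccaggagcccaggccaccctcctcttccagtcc
Acot4, chr12:84038279-84038378, plus strand: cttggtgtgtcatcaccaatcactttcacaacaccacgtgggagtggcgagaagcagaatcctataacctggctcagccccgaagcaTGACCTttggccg
Acot3, chr12:84052044-84052143, plus strand: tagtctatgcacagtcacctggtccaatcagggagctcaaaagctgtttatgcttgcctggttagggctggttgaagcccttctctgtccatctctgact

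Ketone body handling was represented by Bdh1, the mitochondrial enzyme that interconverts acetoacetate and beta-hydroxybutyrate. It read 11.94, 12.02, 11.17, 11.84 and 11.58 log2 in APOE3 and 12.02, 12.23, 11.61, 11.91 and 11.94 in APOE4. The groups overlapped, with APOE3 replicate 3 the lowest. The difference was 0.23 (SE 0.171, adjusted p = 0.743 in limma), and 0.13 (SE 0.223) by the second probe set.

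Pdk4 showed the widest spread and the largest estimate of the group. It encodes the pyruvate dehydrogenase kinase that shuts off glucose oxidation when fat is burnt. It read 7.86, 6.28, 9.03, 6.63 and 5.45 log2 in APOE3 (7.05 ± 1.41, SD, n = 5) and 8.55, 7.37, 8.54, 9.7 and 8.06 in APOE4 (8.44 ± 0.85, SD, n = 5). The lowest 3 values were all from APOE3 livers, but APOE3 replicate 3 had the second highest value of the 10, so the groups overlapped. The log2 difference was 1.39 (SE 0.628, 95% interval 0.012 to 2.774), 2.63-fold, with an unadjusted p = 0.0484 and an adjusted p = 0.623 in limma. Without 1 animal the estimate ranged from 0.99 (without APOE3 replicate 5) to 1.89 (without APOE3 replicate 3), and 3 of the 10 fits had an unadjusted p under 0.05.

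Ppargc1a, a coactivator of PPAR alpha and of mitochondrial gene expression, had the lowest estimate. It read 7.15, 7.61, 7.3, 7.93 and 7.28 log2 in APOE3 and 5.86, 7.38, 7.18, 7.64 and 7.22 in APOE4. The other values overlapped, while APOE4 replicate 1 lay below all of them. The difference was -0.40 (SE 0.297, adjusted p = 0.747 in limma), with -0.48 and -0.36 by its further probe sets, and -0.10 without APOE4 replicate 1. Vnn1, the pantetheinase vanin-1 and a strong PPAR alpha target, was at 0.23 (SE 0.263) and 0.37 (SE 0.32) by a second probe set. Creg1, a secreted glycoprotein gene, was at -0.05 (SE 0.0972).

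**Figure D2:**
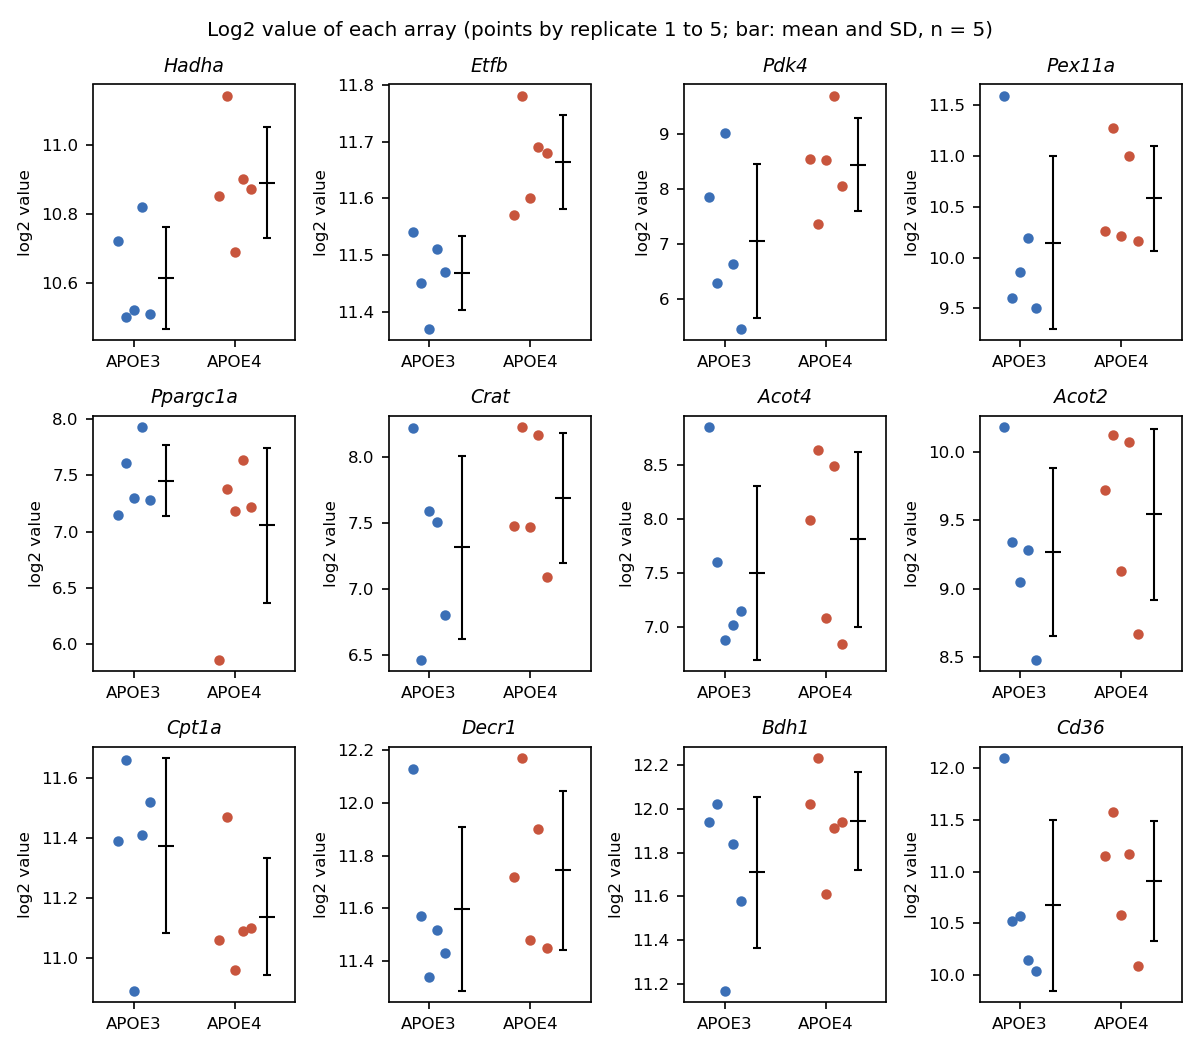
Log2 values of single arrays (points, replicates 1 to 5 from left to right) in APOE3 (blue) and APOE4 (red) livers for 12 genes, with mean and SD (bars, n = 5); each y axis has its own range. The groups are apart only for Etfb, where all APOE4 points lie above 11.54.

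The regions before the starts of Pdk4 and Cpt1a are shown since Pdk4 had the largest estimate of the group and varied inversely with Cpt1a across animals, as given further on. The half-site in Cpt1a, in capitals, lies 94 to 89 bases before the start on the opposite strand, and none was found in the Pdk4 window.
Pdk4, chr6:5496279-5496528, minus strand: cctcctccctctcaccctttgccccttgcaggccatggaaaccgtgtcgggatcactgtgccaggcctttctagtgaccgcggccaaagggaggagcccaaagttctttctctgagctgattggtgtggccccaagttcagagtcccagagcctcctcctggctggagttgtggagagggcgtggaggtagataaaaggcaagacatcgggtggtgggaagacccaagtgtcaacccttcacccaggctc
Cpt1a, chr19:3323051-3323300, plus strand: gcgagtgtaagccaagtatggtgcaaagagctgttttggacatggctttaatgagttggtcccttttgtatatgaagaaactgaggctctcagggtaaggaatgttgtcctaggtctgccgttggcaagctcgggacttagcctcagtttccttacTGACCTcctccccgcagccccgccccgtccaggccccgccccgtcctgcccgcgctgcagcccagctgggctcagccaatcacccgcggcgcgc

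Across animals the genes shared a pattern that did not follow genotype. APOE4 replicate 2 was among the 3 highest of the 10 livers for 33 of the 37 genes, APOE3 replicate 1 for 25 and APOE4 replicate 4 for 25. Each of the other 7 livers was among the 3 highest for 1 to 7 genes. Over all probe sets tested these 3 livers were among the 3 highest for 30.7%, 30.4% and 32.1%, so they were not high in general. For 16 of 37 genes (43.2%) exactly these livers were the 3 highest, against 3.65% of all probe sets. The 16 genes were Cd36, Slc25a20, Crat, Acadl, Acads, Eci1, Eci2, Decr1, Etfa, Ehhadh, Pex11a, Acot1 to Acot4 and Vnn1. These livers were picked out by the values of the same genes, so the shares are a description with no test.

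**Figure D3:**
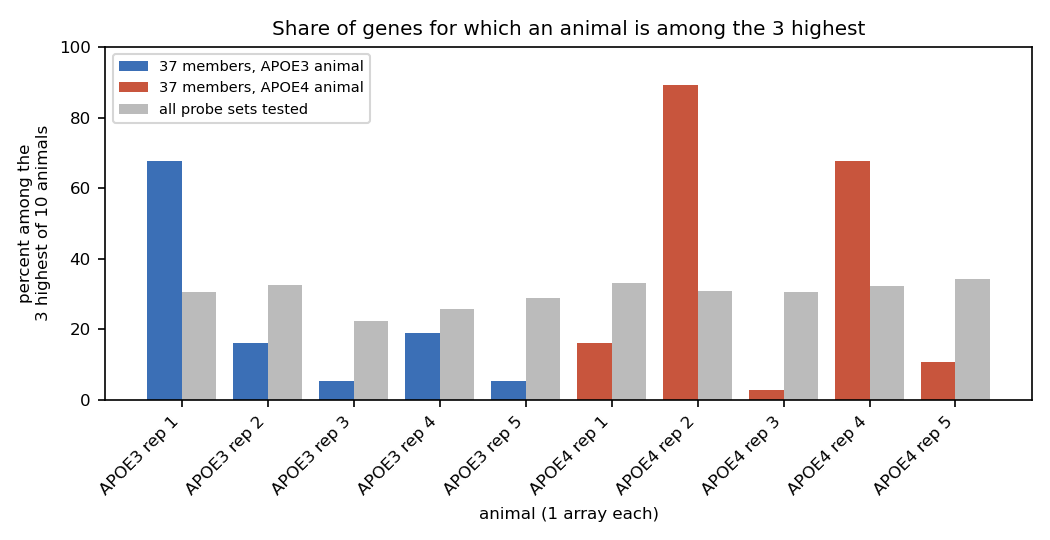
Share of genes (y axis, percent) for which each liver (x axis) was among the 3 highest of 10, for the 37 genes (blue, APOE3; red, APOE4) and for all probe sets tested (grey). APOE3 replicate 1 and APOE4 replicates 2 and 4 reach 67.6%, 89.2% and 67.6%, and the other livers 2.7% to 18.9%.

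The deviations of these livers are given by role as a description, since the same genes picked them out. The median deviation from the gene mean in APOE3 replicate 1, APOE4 replicate 2 and APOE4 replicate 4 was 0.86, 0.76 and 0.73 log2 for the thioesterases. It was 0.36, 0.41 and 0.22 for the enzymes of unsaturated chains and 0.08, 0.20 and 0.08 for the mitochondrial spiral, in the order of their pooled SDs. The livers were not ranked alike in each role: the medians were 0.27, 0.25 and 0.04 for the peroxisomal genes, 0.12, 0.08 and 0.51 for the regulators and responsive genes, and 0.18, 0.21 and 0.34 for carnitine transfer. They were 0.11, 0.22 and 0.08 for uptake and binding, 0.16, 0.21 and 0.11 for electron transfer and 0.11, 0.41 and 0.09 for Bdh1. Vnn1 read 12.3, 12.28 and 12.3 in these livers and at most 11.68 in the other 7. Pdk4 did not share the order: APOE4 replicate 4 was its highest liver, but APOE4 replicate 2 (7.37) lay below all other APOE4 livers.

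**Figure D4:**
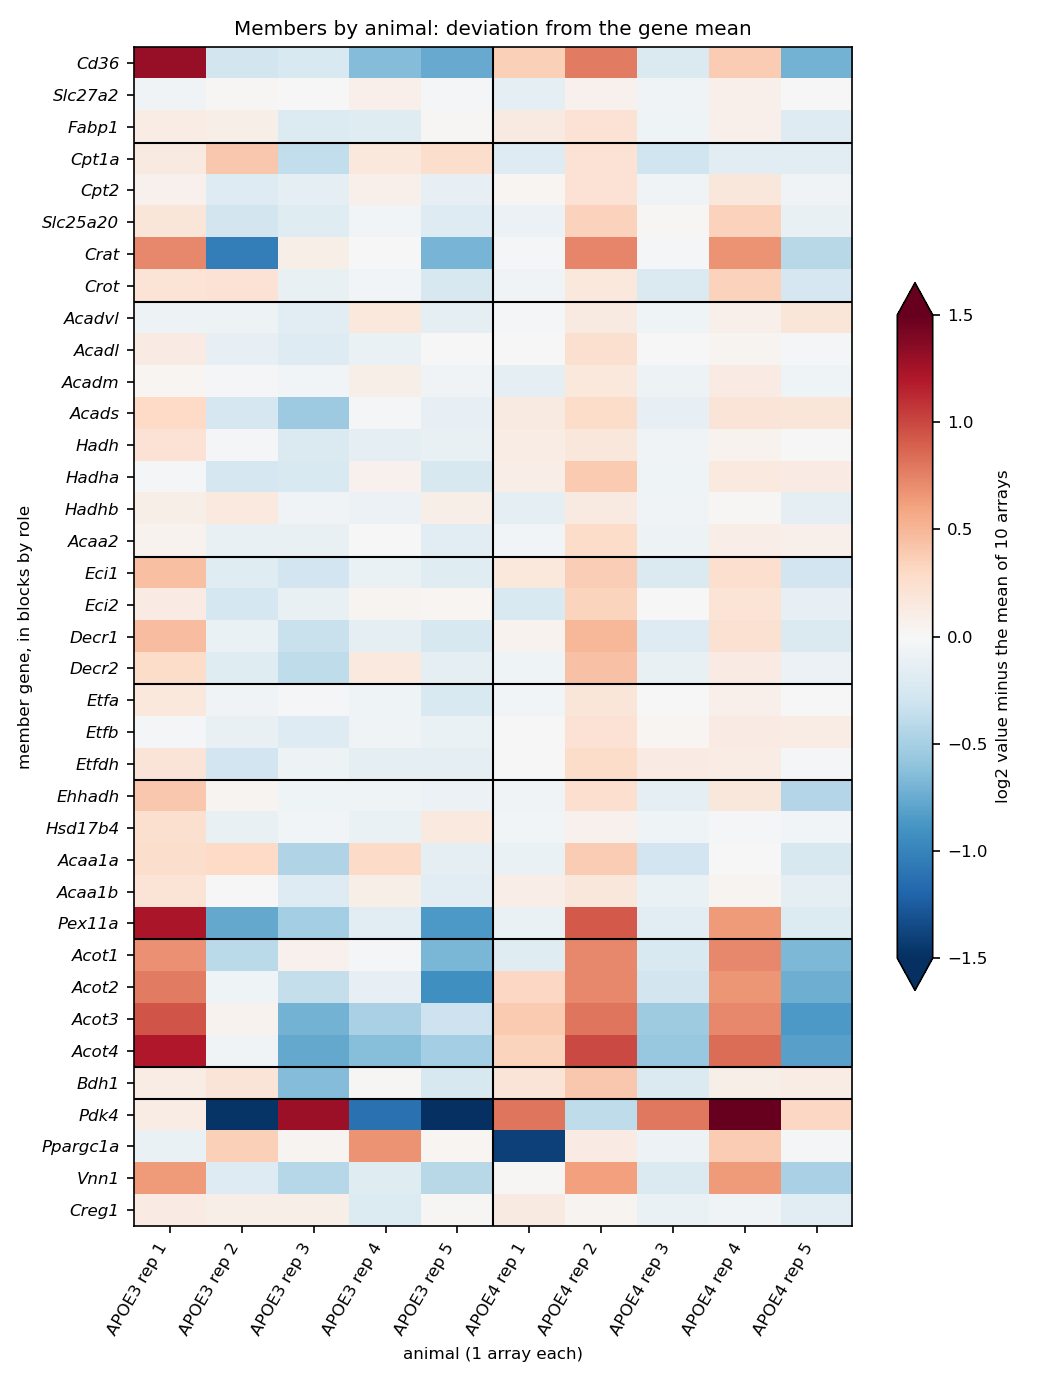
Deviation of each log2 value from the gene's mean over 10 arrays (colour, scale clipped at 1.5 log2 in either direction) for the 37 genes (rows, in blocks by role) and the 10 livers (columns, APOE3 left and APOE4 right of the black line). The columns of APOE3 replicate 1 and APOE4 replicates 2 and 4 are red for most genes. Genes that differ from that pattern include Pdk4, Ppargc1a, Cpt1a and Slc27a2.

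Readings that could move with these livers are given here. Their array medians were 2.64, 2.63 and 2.62. For Actb, the 3' probe set minus the 5' probe set, a measure of how intact the RNA was, read 2.55, 2.58 and 2.97, within the 2.22 to 3.2 of the other 7. The same measure for Gapdh read 0.2, 0.33 and 0.62, against 0.3 to 0.73 in the other 7, so APOE3 replicate 1 lay below them all. The part of RNA quality in the shared pattern was not tested. Of 9 hepatocyte markers measured, APOE3 replicate 1 and APOE4 replicate 2 were among the 3 highest for 0 and APOE4 replicate 4 for 3. The summed signal of those markers ranged from 16.66 to 16.9 log2 in APOE3 and from 16.72 to 16.84 in APOE4.

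Pairs of genes chosen by function were compared over the 10 livers after subtracting each genotype's mean, and 5 of 13 passed after adjustment over the 13. Other pairs of the group were not compared, so whether these relations are particular to the chosen pairs was not tested. Eci1 and Decr1, both acting on unsaturated chains in the matrix, had r = 0.97 and rho = 0.99 (permutation p = 1e-05 and 2e-05, the former the smallest that 100000 resamples can give; adjusted p = 0.00013 for r). Without the 2 livers farthest from the median of Eci1, r was 0.94. Acot1 and Acot2 had r = 0.90 and rho = 0.84 (permutation p = 0.00057 and 0.00385, adjusted p = 0.0037 for r), and r = 0.83 without the 2 farthest livers. Acaa1a and Acaa1b had r = 0.86 and rho = 0.78 (permutation p = 0.00195 and 0.0112, adjusted p = 0.00845 for r), and r = 0.82 without the 2 farthest. These pairs passed in all 10 fits that left out 1 animal.

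Ehhadh and Acaa1b, which act in successive steps in peroxisomes, had r = 0.79 and rho = 0.70 (permutation p = 0.00601 and 0.0307, adjusted p = 0.0156 for r and 0.0798 for rho). The relation was weaker without the 2 farthest livers (r = 0.56) and was lost without APOE3 replicate 1 (r = 0.69, adjusted p = 0.0782 by an exact permutation test).

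Pdk4 and Cpt1a ran in opposite directions, with r = -0.80 and rho = -0.82 (permutation p = 0.00559 and 0.00602, adjusted p = 0.0156 for r). Without the 2 farthest livers r was -0.65, and without APOE3 replicate 3, which had high Pdk4 and the lowest Cpt1a, it was -0.59 (adjusted p = 0.181 by an exact permutation test). By the other Cpt1a probe sets r was -0.54 and -0.67 and did not pass (adjusted p = 0.195 and 0.092, permutation tests over the 13 pairs). Pdk4 was not shown to vary with Acot1 (r = 0.46), Vnn1 (0.19), Cd36 (0.33) or Ppargc1a (-0.08), with adjusted permutation p-values of at least 0.295.

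The subunit pair Hadha and Hadhb had r = 0.18 (permutation p = 0.609, adjusted p = 0.659) by the brightest Hadhb probe set and r = 0.70 (permutation p = 0.0266, adjusted p = 0.0577) by the second; rho was 0.04 and 0.67 (permutation p = 0.918 and 0.0394). Etfa and Etfb had r = 0.60 and Acadm and Acadl r = 0.52 (adjusted permutation p = 0.141 and 0.235), and Cpt1a and Cpt2 r = 0.29 (adjusted permutation p = 0.563). Etfa and Etfb passed in only 1 fit without 1 animal, the one without APOE3 replicate 5 (r = 0.747, adjusted p = 0.0466 by an exact permutation test). In the other 7 livers, left over after those picked out by the same genes, r was 0.89 for Eci1 and Decr1 and 0.845 for Acaa1a and Acaa1b. It was 0.69 for Acot1 and Acot2, 0.56 for Ehhadh and Acaa1b and -0.92 for Pdk4 and Cpt1a. There Hadha and Hadhb had r = -0.74, Etfa and Etfb -0.145, Acadm and Acadl -0.154 and Cpt1a and Cpt2 -0.006. Pdk4 had r = 0.774 with Acot1, 0.47 with Cd36, -0.075 with Vnn1 and -0.158 with Ppargc1a. By exact permutation tests in these 7 livers no pair passed, and the lowest adjusted p was 0.0516. These tests cannot show whether the pairs hold outside the livers left out. Those livers were chosen by these genes' values, and fewer animals enter. The values of r in the 7 livers are therefore given as a description.

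**Figure D5:**
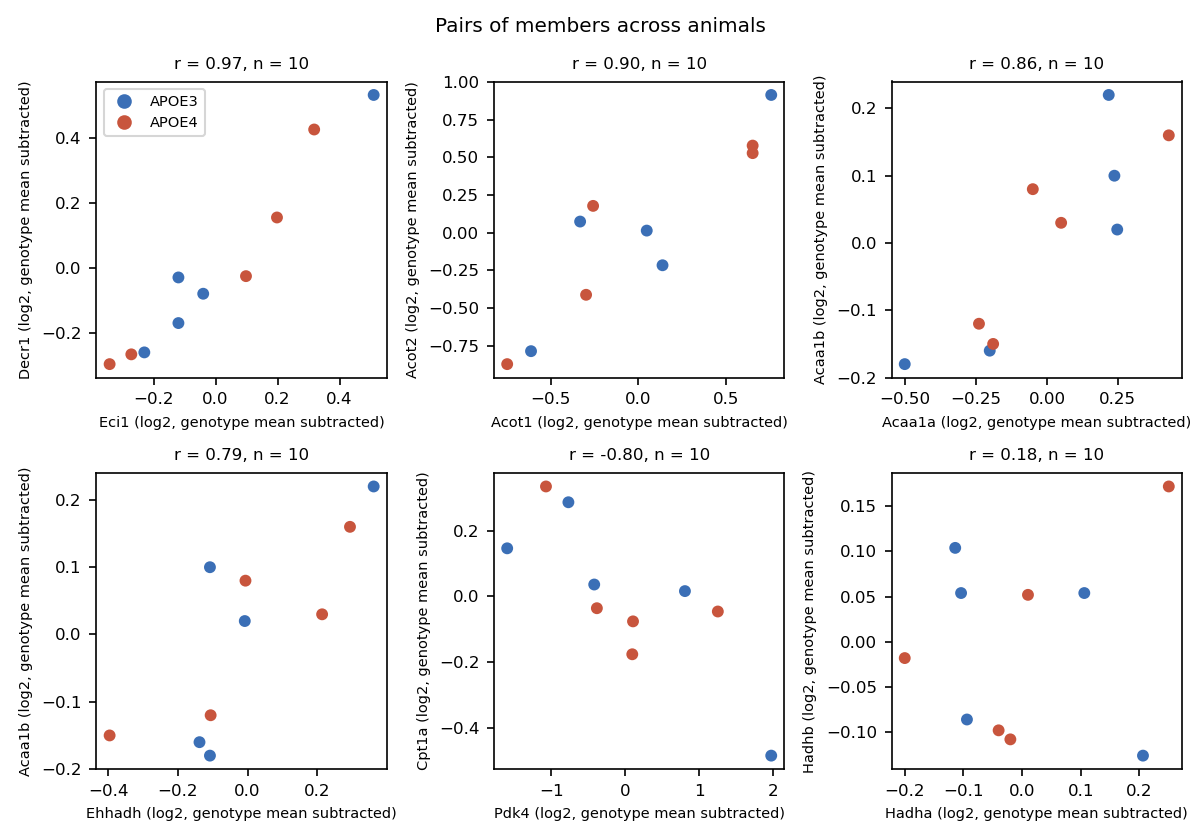
Log2 values of 6 gene pairs with each genotype's mean subtracted (x and y axes), 1 point per liver (blue, APOE3; red, APOE4; n = 10), with Pearson's r above each panel. Eci1 and Decr1 fall along a line (r = 0.97), Pdk4 and Cpt1a run opposite ways (r = -0.80), and Hadha and the x_at probe set of Hadhb have r = 0.18, against 0.70 by the other Hadhb probe set, which is not drawn.

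The rest of the pathway was followed through 81 further genes, of which 62 were measured above the filter. None passed (0 of 62), 39 were above 0 and 23 below, and their median difference was 0.06. An unadjusted p under 0.05 was reached by 3 of the 62, a share below the 8.00% of all probe sets and the 7.16% with 1 per gene. For Mgll, the monoacylglycerol lipase, limma gave 0.37 (SE 0.132) with an adjusted p = 0.58, and for Hsdl2, a peroxisomal dehydrogenase-like protein, 0.35 (SE 0.154) with an adjusted p = 0.612. Ncoa1, a coactivator of nuclear receptors, was at 0.25 (SE 0.112, adjusted p = 0.624). Ppara itself was at 10.55 in APOE3 and 10.33 in APOE4, a difference of -0.22 (SE 0.173, adjusted p = 0.764), and of the 15 measured regulators of transcription, Ppara included, 7 were above 0 and 8 below.

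By role, 4 of 6 measured genes of ketone body synthesis, use and transport were above 0. Acat1, the acetoacetyl-CoA thiolase, was at 0.23 (SE 0.131) and the transporter gene Slc16a6 at 0.50 (SE 0.279), near background at 4.6 and 5.1. Of 12 further peroxisomal genes 9 were above 0, with Hacl1, which shortens branched and hydroxy acids, at 0.22 (SE 0.129) and the thioesterase gene Acot8 at 0.29 (SE 0.18). Of 21 further mitochondrial genes 13 were above 0, with Acsl4, an acyl-CoA synthetase, at -0.19 (SE 0.117) and Acad8, which acts in valine breakdown, at 0.13 (SE 0.0934). Of 8 further PPAR alpha responsive genes 6 were above 0. The livers APOE3 replicate 1 and APOE4 replicates 2 and 4 were the 3 highest for 11 of the 62 (17.7%), which were not used to pick them, against 3.65% of all probe sets. These were Acat1, Abcd3, Ech1, Acot8, Pex19, Slc22a5, Mcee, Hsdl2, Aldh3a2, Txnip and Sirt3. The 62 genes belong to the same pathway and were listed with earlier results of these data known. This share too is therefore a description with no test.

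The hepatocyte genes expected under the liver label were high, with Alb at 14.46 and 14.48 log2 in APOE3 and APOE4 and Ttr at 14.66 and 14.64. Markers of other cells were set beside the genotype comparison. Kupffer cell markers were below 0 for 9 of 10 (median -0.25), while 60.9% of all probe sets tested were above 0. The summed signal of these markers was 12.96 to 13.99 log2 in APOE3 and 12.76 to 13.57 in APOE4. Without 1 animal the median ran from -0.353 (without APOE4 replicate 1, 10 of 10 below 0) to -0.0967 (without APOE3 replicate 4, 7 of 10). It was -0.15 without APOE4 replicate 5, with 8 of 10 below 0. Sinusoidal endothelial markers were above 0 for 5 of 8, though Cdh5, the only one with an unadjusted p under 0.05, was at -0.34 (adjusted p = 0.565 in limma). Stellate cell and fibroblast markers were above 0 for 3 of 6, and the lowest p of all markers was that of Lrat, at 0.75 (SE 0.205, unadjusted p = 0.00378, adjusted p = 0.452 in limma). Both were named after their values were seen. The 3 adipocyte and 4 cholangiocyte markers on the array had means under 4. The part of these other cells in the differences of the group was not tested.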

How the data were processed

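Liver RNA of 10 mice (2 ug each, biotin label) was measured on 1-colour arrays with 1 value per probe set. The deposited values are log2 signals. The submitters' processing notes name GCRMA 2.12.1 and R 2.7.1; this method models background from the bases of each probe, so undetected transcripts sit near a low floor, and it equalizes the arrays. Any probe filter is not given in the sources used here. Groups and replicate numbers come from the sample titles. By the platform annotation, 34958 probe sets carry 1 symbol, 932 carry several and 9211 carry no symbol.

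After leaving out 64 control probe sets, those with a mean of at least 4 log2 over all arrays were compared by limma (version 3.58.1, R 4.3.3) with a moderated two-sided test and no covariate, with Benjamini-Hochberg adjustment over 14732 probe sets and a threshold of 0.05. Precision is limited by having 5 arrays per genotype, with 0.142 as the median SE over probe sets. The limma p-values set each genotype difference against the spread between animals of a genotype, moderated over all probe sets tested. Correlations over 10 livers were tested by permutation with 100000 resamples, two-sided, and exactly with fewer livers. Values were shuffled over all livers and not within genotype, after the genotype means were subtracted, which can make these p-values too small. Genes given with all arrays were those with an unadjusted p under 0.05, the 6 largest differences and the smallest p of each role; of further pathway genes, those under 0.05 or the 2 smallest p of a role. Ppara, the genes highest in the same 3 livers and further probe sets were added after values were seen. The genes and lists were chosen with earlier results of these data known. Python 3.11.15 with matplotlib 3.10.9 made the figures. The limma fit was tested on simulated data with independent noise in each gene, and the permutation test on simulated pairs without genotype groups. These simulations covered neither a pattern shared by genes across livers nor the subtraction of genotype means.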

Additional observations from a re-analysis of the deposited data

Results flagged for a closer look

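Single livers stood apart from the other 4 of their genotype for 9 of 74 groups checked (37 genes, 2 genotypes), by a gap to the nearest value that, as a share of the group's range, exceeded Dixon's 95% critical value; chance gives about 5% of groups. APOE3 replicate 1 was the highest for Cd36 (12.1, next 10.57), Eci1 (11.4, next 10.85), Ehhadh (12.66, next 12.29) and Vnn1 (12.3, next 11.48). APOE4 replicate 2 was the highest for Cpt1a (11.47, next 11.1), Acadl (11.96, next 11.77) and Hsd17b4 (12.55, next 12.45). APOE3 replicate 4 was the highest for Acadvl (11.62, next 11.39), and APOE4 replicate 1 the lowest for Ppargc1a (5.86, next 7.18). The genes are not independent of each other, as 7 of the 9 values fall on 2 livers.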

How the results depend on the processing

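No gene of the group passed in any of the 20 alternative fits, whose counts stayed at 0. Over all probe sets 12 passed, but 5 with a mean of at least 6 and 7 with 1 probe set per gene, where fewer were tested, and 8 to 14 without 1 animal. By the brightest probe sets, renewed quantile normalization left 0 of the group at an unadjusted p under 0.05 (the cause was not tested), and leaving out 1 animal gave 0 to 6. The median difference was 0.0893 after quantile normalization, 0.153 with arrays centred and 0.049 to 0.179 without 1 animal. With the replicate number as a block 11 probe sets and 0 of the group passed, and 2 of the group had an unadjusted p under 0.05; same-numbered animals correlated at -0.079 to 0.414, so the numbers were not taken as pairs. Of 370 single differences under other settings 8 changed sign, all uncalled: Crot became 0.0125 and Acadm 0.0136 with array weights; with arrays centred Slc27a2 became 0.0172, Crot 0.0191 and Acadm 0.0306; with all probe sets averaged Hadh became -0.0813, Hadhb 0.0526 and Hsd17b4 0.043. Without 1 animal 20 of 370 changed sign, in Crot (-0.0992 to 0.0503), Acadm (-0.0397 to 0.0331), Slc27a2 (-0.0371 to 0.0179), Hsd17b4 (-0.086 to 0.0026), Acaa1b (-0.0156 to 0.0844), Acot1 (-0.0157 to 0.337) and Ehhadh (-0.17 to 0.0036). Of the 13 pairs 5 passed, and 4 to 6 did without 1 animal. The count was 4 with either other Cpt1a probe set and 0 within the 7 other livers. There fewer animals enter, and the livers were left by a choice on these genes' values. That last count therefore cannot show whether the pairs hold outside the livers picked out. The settings with other Cpt1a probe sets and with the 7 livers were chosen after seeing the data.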
